A study of Homo sapiens with 6 samples.

Results

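The genes described here encode LSD1, its paralog LSD2 and the proteins that join LSD1 in the CoREST corepressor complex. They are KDM1A, KDM1B, RCOR1, RCOR2, RCOR3, PHF21A, HMG20B, ZMYM2 and ZMYM3, taken by symbol from the table of 15585 genes, and all 9 were found in it. All 9 also passed the filter on low counts, which left 11844 genes for testing. RNA was sequenced from U2OS cells, a human osteosarcoma line, 48 h after transfection with control siRNA (siCTR, 3 libraries) or siRNA against LSD1 (siLSD1, 3 libraries). All 6 libraries share the cell line and the transfection step, and 12513511 to 13561344 reads were counted in each. The labels do not say which LSD1 siRNA was used or whether the libraries of a group came from separate transfections, so p-values measure the spread between these libraries, which may be technical. The comparison asks whether RNA of the partners or of KDM1B differed between the groups when KDM1A RNA was lowered.

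LSD1 is a FAD-dependent amine oxidase that removes methyl groups from mono- and dimethylated lysine 4 of histone H3, marks of active enhancers and promoters. On nucleosomes it works with a CoREST scaffold protein, which grips the tower domain of LSD1 and also binds the deacetylases HDAC1 and HDAC2, so that the complex strips both methyl and acetyl groups and holds genes silent. The complex is best known for keeping neuronal genes off in non-neuronal cells together with the repressor REST.

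Several members are close relatives, so the stretches of sequence they have in common matter for whether a read can be given to 1 of them. The longest exact runs common to their coding sequences were read from GRCh38 with GENCODE 44 transcripts and are printed 5′ to 3′. They show how short the exact runs common to the coding sequences of the paralogs are. Sequence outside the coding parts of these transcripts was not compared.
KDM1A and KDM1B: atggaactgg
RCOR1 and RCOR3: caagcctttagttttcatgg
RCOR1 and RCOR2: aactagtgtgatgga
RCOR2 and RCOR3: aagcatggctacaa
ZMYM2 and ZMYM3: agaggatctact

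The run of KDM1A and KDM1B is 10 bases long and lies in exon 9 of KDM1A (chr1:23059111-23059120, + strand) and exon 10 of KDM1B (chr6:18191277-18191286, + strand). The longest of these runs has 20 bases and lies in exon 5 of RCOR1 (chr14:102707465-102707484, + strand) and exon 5 of RCOR3 (chr1:211276371-211276390, + strand). RCOR1 and RCOR2 have 15 bases in common, RCOR2 and RCOR3 have 14, and ZMYM2 and ZMYM3 have 12. No word of 50 bases was common to the coding sequences of any of the 36 pairs of members. In 7 of the 9 members no 50-base word of the coding sequence occurred in a transcript of any gene outside the members, on either strand. The exceptions are RCOR2, with 13 of 1520 words in 1 gene that has no symbol, and HMG20B, with 60 of 902 words in MFSD12 on the opposite strand.

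KDM1A, the gene targeted by the siRNA, was lowered in every siLSD1 library. It lies on chromosome 1 (chr1:23019443-23083689, + strand, GRCh38). The siCTR libraries held 6140, 6493 and 6573 KDM1A reads and the siLSD1 libraries 1110, 1198 and 1246. No siLSD1 library came near a siCTR library. On the scale of CPM, the counts scaled by TMM to a common library size, KDM1A was at 489 ± 16.4 in siCTR and 90.4 ± 6.92 in siLSD1 (mean ± SD, n = 3 each), so that 18.5% of the siCTR level was left, with single siLSD1 libraries at 16.9% to 19.7%. The log2 fold change was −2.44 with a 95% interval of −2.68 to −2.19, and the adjusted p was 2.27e-07 by edgeR's quasi-likelihood test (Benjamini-Hochberg). Of all tested genes, KDM1A had the lowest p and the largest fall in this fit. RNA of bulk cultures cannot tell fewer cells with KDM1A RNA from less KDM1A RNA per cell.

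**Figure D1:**
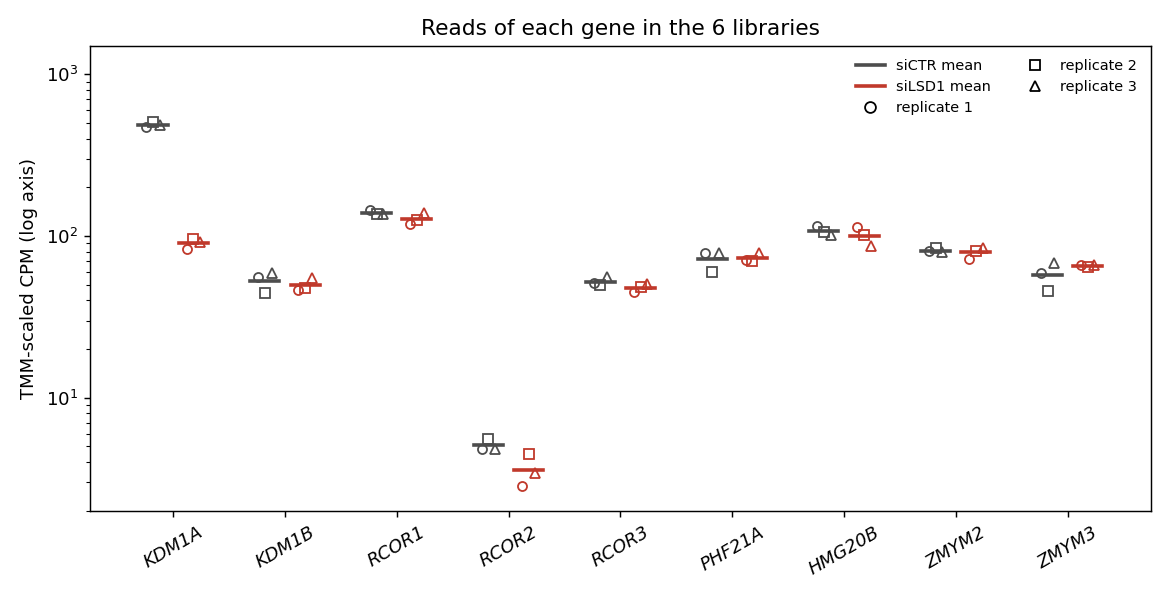
CPM of each of the 9 members in each of the 6 libraries, on a log axis, with siCTR and siLSD1 libraries as points and the group mean as a bar. KDM1A drops from 489 to 90.4 CPM, while in 7 of the other 8 members the points of the groups overlap, and only RCOR2, the member with the fewest reads, has its groups apart.

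KDM1A was the 1 member of 9 with an adjusted p under 0.05 in edgeR's quasi-likelihood test, against 1.44% of all tested genes (0.371% lower and 1.07% higher). At an unadjusted p under 0.05 it was joined by RCOR2, against 14.0% of all tested genes (6.55% lower and 7.48% higher). Groups that did not overlap in CPM, siLSD1 being lower, were found for the same 2 members, against 9.97% of tested genes, and no member had its siLSD1 libraries all above its siCTR libraries, against 11.4%, or 21.4% in either direction together. The 8 members other than KDM1A had a median log2 fold change of −0.09, where the median of all tested genes was −0.01. Their median absolute log2 fold change was 0.11, and that of all tested genes 0.15. Of these 8, 6 were on the lower side and 2 on the higher side of 0, and 52.7% of all tested genes were on the lower side. Taking the libraries in same-numbered pairs, 4 of the 9 members (KDM1A, RCOR2, RCOR3 and HMG20B) had the lower CPM in siLSD1 in all 3 pairs, against 21.9% of all tested genes, and none had the higher CPM in all 3, against 20.2%.

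**Figure D2:**
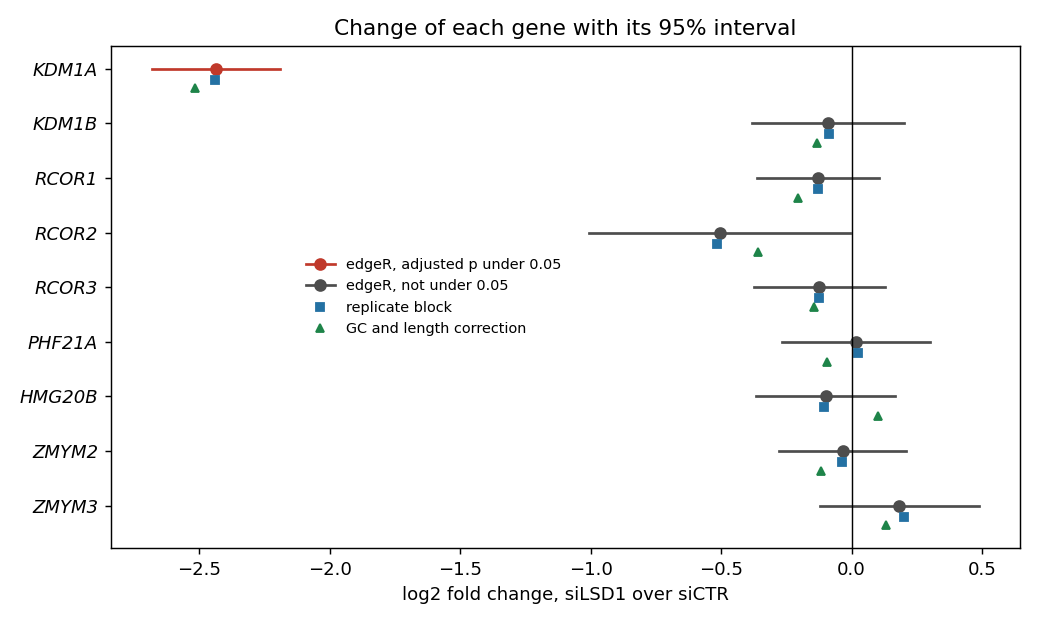
Log2 fold change, siLSD1 against siCTR, of each member with its 95% interval, from edgeR's quasi-likelihood fit (circles), beside the value with a replicate block (squares) and with a GC and length correction (triangles), which turns the sign of PHF21A and HMG20B. The interval of KDM1A runs from −2.68 to −2.19, and for 7 of the other 8 members it lies within −0.5 and 0.5 and includes 0.

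KDM1B (chr6:18155329-18223854, + strand) encodes LSD2, the other flavin-dependent histone demethylase of lysine 4, which lacks the tower domain and does not join CoREST. Its reads were 725, 574 and 791 in siCTR libraries against 627, 594 and 747 in siLSD1 libraries. The groups overlapped, and the lowest of the 6 values was siCTR replicate 2. KDM1B stood at 53.1 ± 7.45 CPM in siCTR and 49.9 ± 4.75 CPM in siLSD1 (mean ± SD, n = 3 each), with a log2 fold change of −0.09 (SE 0.14) and an adjusted p of 0.805 by edgeR's quasi-likelihood test (Benjamini-Hochberg). The 95% interval of the ratio ran from 0.768 to 1.15, so that a rise of the paralog above 1.15 times its siCTR level lies outside it, which does not show that the level was the same. Leaving out 1 library at a time gave −0.20 when siCTR replicate 2 was omitted and −0.01 when siCTR replicate 3 was omitted, the ends of the range.

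Of the 3 scaffold genes, RCOR1 (chr14:102592649-102730561, + strand) encodes CoREST itself. It had 1879, 1755 and 1843 reads in siCTR libraries against 1593, 1567 and 1866 in siLSD1 libraries. The first 2 siLSD1 replicates lay below all siCTR libraries and the third within them, so the groups overlapped. The mean went from 140 ± 4.54 to 128 ± 9.95 CPM (SD, n = 3 each), with a log2 fold change of −0.13 (interval −0.36 to 0.10). The adjusted p was 0.622, and the lowest over the alternatives, with a replicate block and a GC and length correction, was 0.0718 at a log2 fold change of −0.20, both by edgeR's quasi-likelihood test (Benjamini-Hochberg).

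RCOR3 (chr1:211258377-211316385, + strand), a paralog of the scaffold, had 670, 638 and 749 reads in siCTR libraries against 601, 607 and 682 in siLSD1 libraries. These ranges overlapped as well, although CPM was the lower in siLSD1 in each of the 3 same-numbered pairs. The log2 fold change was −0.12 (interval −0.38 to 0.13), and the CPM means were 52.3 ± 3.08 and 48.0 ± 2.95 (SD, n = 3 each).

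RCOR2 (chr11:63911230-63917164, − strand), the scaffold paralog linked to stem cells and the nervous system, was by far the least read member. It had 63, 71 and 65 reads in siCTR libraries against 38, 56 and 46 in siLSD1 libraries, and the highest siLSD1 library lay below the lowest siCTR library. RCOR2 was at 5.07 ± 0.396 CPM in siCTR and 3.58 ± 0.844 CPM in siLSD1 (SD, n = 3 each), or 70.6% of the siCTR level. Its log2 fold change was −0.51 with an interval of −1.0 to −0.01. The unadjusted p was 0.0478 and the adjusted p 0.349 by edgeR's quasi-likelihood test (Benjamini-Hochberg), so it did not pass the threshold used for all genes. The unadjusted p was 0.0421 by limma (voom), 0.075 by DESeq2 and 0.157 with the GC and length correction, where the log2 fold change was −0.36. In a second counting of the same libraries by the authors it had 73, 82 and 79 reads in siCTR libraries against 51, 65 and 51 in siLSD1 libraries, again without overlap. Leaving out 1 library at a time gave log2 fold changes from −0.69 to −0.36, with an unadjusted p in edgeR's quasi-likelihood test of 0.0242 without siLSD1 replicate 2 and of 0.0652 to 0.166 when one of the other libraries was left out.

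PHF21A (chr11:45929319-46121454, − strand) encodes BHC80, the PHD finger subunit that binds the unmethylated histone H3 tail. Its reads were 1020, 766 and 1057 in siCTR libraries against 953, 870 and 1061 in siLSD1 libraries. Here too siCTR replicate 2 was the lowest of the 6 libraries, and the siLSD1 values lay largely within the siCTR range. PHF21A was at 72.3 ± 10.9 CPM in siCTR and 73.2 ± 4.8 CPM in siLSD1 (SD, n = 3 each), a log2 fold change of 0.02 (interval −0.27 to 0.30) that was −0.10 without siCTR replicate 2 and −0.09 with the GC and length correction.

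HMG20B (chr19:3572777-3579088, + strand) encodes BRAF35, the HMG box subunit that contacts DNA. It had 1502, 1356 and 1367 reads in siCTR libraries against 1518, 1267 and 1171 in siLSD1 libraries, with overlapping groups. The log2 fold change of −0.10 (interval −0.36 to 0.17) became 0.10 with the GC and length correction, and leaving out 1 library moved it from −0.19 (without siLSD1 replicate 1) to −0.0018 (without siLSD1 replicate 3). HMG20B has 369 exon bases in common with MFSD12 on the opposite strand, and whether the authors counted by strand is not given in the sources used here, so reads of these genes may not be told apart. MFSD12 itself had a log2 fold change of −0.09, which became 0.15 with the GC and length correction and 0.09 without siLSD1 replicate 3.

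ZMYM2 and ZMYM3 encode large MYM-type zinc finger proteins that are found with LSD1 and CoREST. ZMYM2 (chr13:19958677-20091829, + strand) had 1046, 1081 and 1065 reads in siCTR libraries against 967, 1011 and 1146 in siLSD1 libraries. The siLSD1 libraries lay on both sides of the siCTR libraries. Its log2 fold change was −0.03 (interval −0.28 to 0.21), and 0.03 without siLSD1 replicate 1.

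ZMYM3 (chrX:71239624-71255146, − strand) had 771, 589 and 915 reads in siCTR libraries against 886, 805 and 893 in siLSD1 libraries. The siCTR libraries held both the lowest and the highest value. With 57.8 ± 11.2 CPM in siCTR and 65.6 ± 0.882 CPM in siLSD1 (SD, n = 3 each), ZMYM3 had the highest log2 fold change of the members, 0.18 (interval −0.12 to 0.49), which was 0.04 without siCTR replicate 2 and 0.32 without siCTR replicate 3. It has 187 exon bases in common with NONO on the opposite strand, an abundant gene with 9593 to 11348 reads per library and a log2 fold change of 0.14.

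The members also differed in level, which was compared per length as FPKM, the length- and depth-scaled values deposited by the authors. In siCTR the order was KDM1A at 156 ± 3.33 FPKM, HMG20B at 67.4 ± 5.10, RCOR1 at 24.2 ± 1.05, PHF21A at 18.8 ± 3.04, KDM1B at 11.5 ± 1.72, RCOR3 at 10.4 ± 0.670, ZMYM3 at 8.91 ± 1.79, ZMYM2 at 7.92 ± 0.184 and RCOR2 at 1.94 ± 0.13 FPKM (mean ± SD, n = 3). The libraries of KDM1B and RCOR3, of RCOR3 and ZMYM3, and of ZMYM3 and ZMYM2 overlapped, while all other neighbours were apart. Within libraries, RCOR3 was above ZMYM3 in all 3, and KDM1B above RCOR3, and ZMYM3 above ZMYM2, in 2 of 3. KDM1A lay above 98.3% of the genes in the table.

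In siLSD1 KDM1A took the second place at 28.9 ± 2.0 FPKM, below HMG20B at 63.0 ± 8.73 and above RCOR1 at 22.2 ± 1.58 FPKM, with no overlap between these neighbours. It still lay above 84.6% of the genes in the table after the knockdown. Behind RCOR1 came PHF21A at 19.1 ± 1.18, KDM1B at 10.8 ± 0.974, ZMYM3 at 10.1 ± 0.182, RCOR3 at 9.54 ± 0.512, ZMYM2 at 7.74 ± 0.587 and RCOR2 at 1.37 ± 0.316 FPKM. Only KDM1B with ZMYM3, and ZMYM3 with RCOR3, overlapped, the former being the higher in 2 of 3 and in 3 of 3 libraries. The order depends on the length used, since the deposited FPKM of KDM1A correspond to a length of 3128 bases and the exons of all annotated transcripts cover 18325 bases, and with the latter KDM1A ranked 2 in siCTR and 7 in siLSD1. For PHF21A these lengths are 3839 and 25046 bases, and with the latter it ranked 8 in both groups, below KDM1B, RCOR3, ZMYM2 and ZMYM3. With that length RCOR3 also ranked below ZMYM2 in both groups, and in siLSD1 ZMYM3 ranked 3, above KDM1B.

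**Figure D3:**
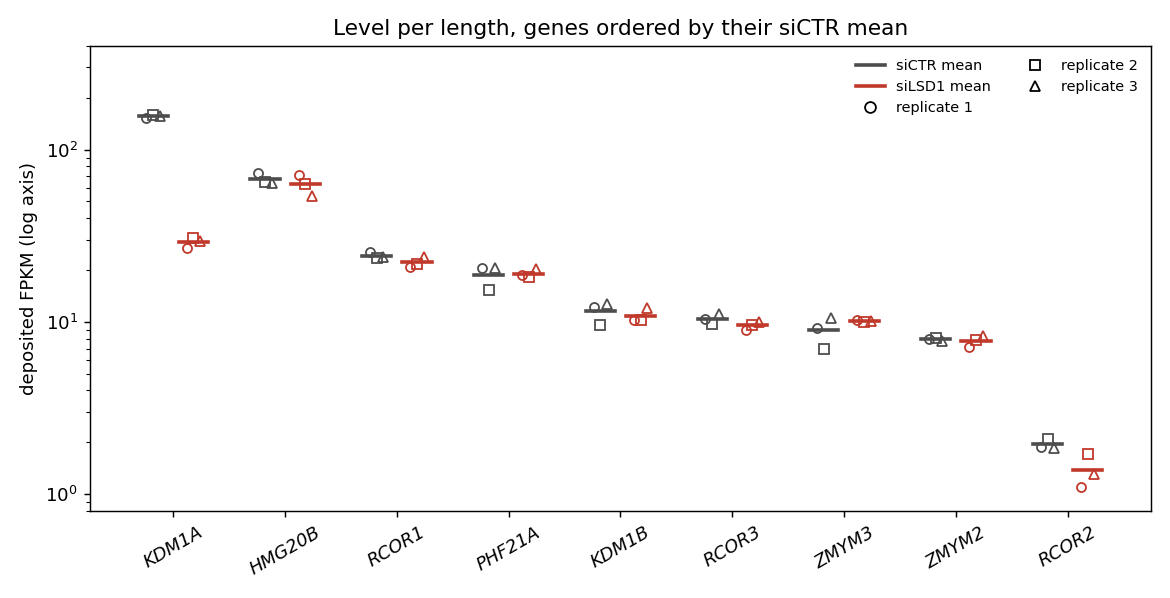
FPKM of the 9 members, on a log axis, in the order of their siCTR means, with each library as a point and the group mean as a bar. KDM1A is the highest member at 156 FPKM in siCTR and stands at 28.9 FPKM, below HMG20B, in siLSD1.

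Ratios of reads within a library do not depend on the scaling of the libraries, and 11 were compared between the groups. They are not per length, so only their change is read. KDM1A reads per RCOR1 read were 3.27, 3.70 and 3.57 in siCTR and 0.697, 0.764 and 0.668 in siLSD1. KDM1A reads per KDM1B read were 8.47, 11.3 and 8.31 in siCTR and 1.77, 2.02 and 1.67 in siLSD1. For each of the 8 members set against KDM1A, the 3 siLSD1 ratios lay below the 3 siCTR ratios, with log2 changes from −2.64 (against ZMYM3) to −1.91 (against RCOR2). Each had p = 0.1 in a two-sided exact permutation test, the smallest p that 3 against 3 libraries can give, and 0.138 after Benjamini-Hochberg adjustment over the 11 ratios. KDM1A was at 18.5% of its siCTR level in siLSD1, and no other member was below 70.6%. These 8 ratios therefore restate the fall of KDM1A and are not 8 separate results.

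The 3 ratios among relatives moved less. RCOR2 reads per RCOR1 read averaged 0.0364 in siCTR and 0.0281 in siLSD1 (p = 0.3, exact permutation test), RCOR3 reads per RCOR1 read 0.376 and 0.377 (p = 0.9), and ZMYM3 reads per ZMYM2 read 0.714 and 0.831 (p = 0.4). The first of these was lower in siLSD1 in all 3 same-numbered pairs, which this test does not use. After adjustment over the 11 ratios, its p stood at 0.367 in the exact permutation test.

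**Figure D4:**
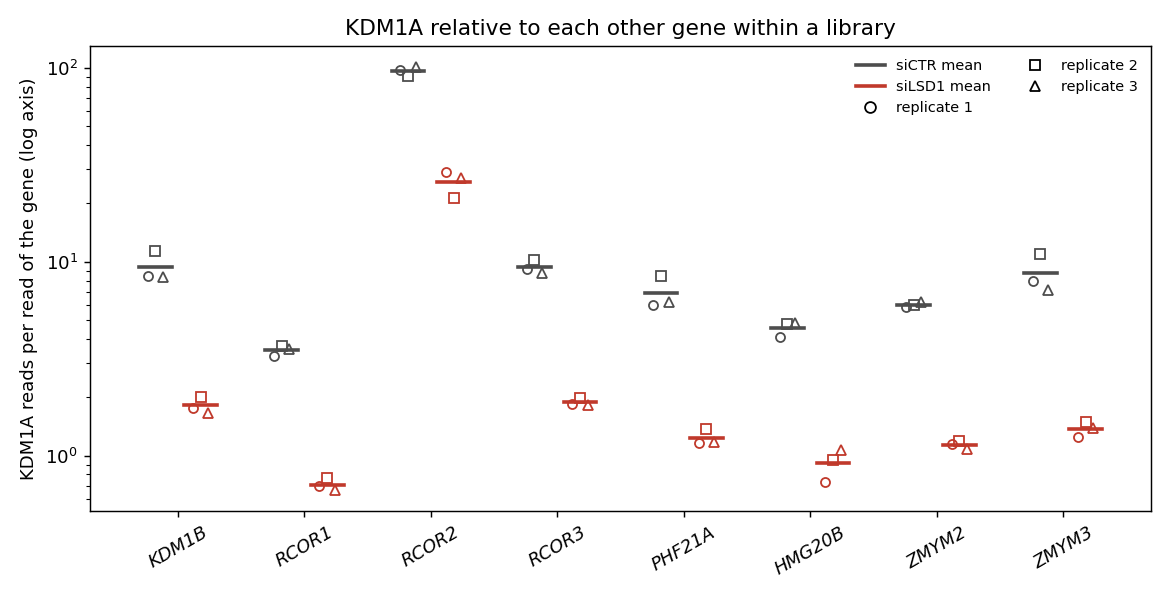
KDM1A reads per read of each of the 8 other members in each library, on a log axis, siCTR and siLSD1. For every member the 3 siLSD1 points lie below the 3 siCTR points, from 3.27 to 3.70 against 0.668 to 0.764 for RCOR1.

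Within the families, the makeup of the RNA was also compared per length. KDM1B supplied 7.43%, 5.67% and 7.56% of the summed KDM1A and KDM1B FPKM in siCTR and 27.7%, 25.2% and 28.9% in siLSD1. The groups were apart (p = 0.1, exact permutation test, the smallest possible), and since KDM1B FPKM itself overlapped between the groups, the share moved with KDM1A. By annotated exon length, an alternative added after seeing the data, the shares were 26.1 ± 3.25% and 64.3 ± 2.24% (SD, n = 3 each), so the rise of the share held and its size did not. RCOR1 supplied 66.2% of the summed scaffold FPKM in siCTR and 67.0% in siLSD1 (75.2% and 76.1% by annotated exon length), and RCOR3 28.4% and 28.9%. RCOR2 supplied 5.33 ± 0.528% and 4.15 ± 0.905% (SD, n = 3 each).

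The summed FPKM of the 3 scaffold genes was 37.6, 35.2 and 36.8 in siCTR and 30.9, 33.1 and 35.2 in siLSD1. The highest siLSD1 sum (35.21) lay just below the lowest siCTR sum (35.24), and the means were 36.5 ± 1.21 and 33.1 ± 2.15 (SD, n = 3 each). KDM1A FPKM per summed scaffold FPKM went from 4.06, 4.52 and 4.25 in siCTR to 0.864, 0.924 and 0.834 in siLSD1. By annotated exon length this ratio was 0.893 ± 0.049 in siCTR and 0.183 ± 0.00998 in siLSD1 (SD, n = 3 each). It was therefore lower in siLSD1 with both lengths, but whether KDM1A RNA exceeded scaffold RNA per length in siCTR depends on the length used.

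Of 16 other genes whose products work with LSD1 in corepressor complexes, 13 were tested. None passed an adjusted p of 0.05 in edgeR's quasi-likelihood test, in either direction, and 1 was higher at an unadjusted p under 0.05, against 7.48% of all tested genes. Their median log2 fold change was −0.01, the same as that of all tested genes, with a range of −0.20 to 0.28. ZNF217, a zinc finger protein found with LSD1 and CoREST, had 1123, 900 and 1156 reads in siCTR libraries against 1298, 1183 and 1388 in siLSD1 libraries, which do not overlap (log2 fold change 0.28, unadjusted p 0.0346, adjusted p 0.305).

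The deacetylases of the complex, named outside the rule for named genes because of their place in it, were HDAC1 with a log2 fold change of 0.16 (interval −0.07 to 0.39) and HDAC2 with −0.01 (interval −0.30 to 0.27). HDAC2 was −0.10 without siCTR replicate 1 and 0.10 without siCTR replicate 2. In CPM, HDAC1 and ZNF217 were among 3 of the 13 tested corepressor genes with all siLSD1 libraries above all siCTR libraries. None had them all below. The shares over all tested genes were 11.4% and 9.97%. GFI1 and GFI1B, blood cell repressors that recruit LSD1, had at most 4 reads in a library and were not tested.

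Relatives of the members by protein family numbered 15, of which 12 were tested, and none passed the adjusted threshold in edgeR's quasi-likelihood test, with 1 higher and 1 lower at an unadjusted p under 0.05, against 7.48% and 6.55% of all tested genes. Their median log2 fold change was 0.09. MIER3, which has the ELM2 and SANT domains of the CoREST scaffolds and binds histone deacetylases, had 697, 699 and 832 reads in siCTR libraries against 461, 546 and 658 in siLSD1 libraries. All siLSD1 libraries were below all siCTR libraries, with a log2 fold change of −0.42 (SE 0.14) and an adjusted p of 0.191, which was 0.0143 with the replicate number as a block and 0.00815 with the GC and length correction, settings that called 7.57% and 7.09% of all tested genes. MAOA, a mitochondrial amine oxidase with a flavin fold like that of LSD1, had 10, 9 and 10 reads in siCTR libraries against 17, 12 and 28 in siLSD1 libraries, a log2 fold change of 0.96 (SE 0.40) with an adjusted p of 0.30. With 1 library left out, the log2 fold change of MAOA ran from 0.59 (without siLSD1 replicate 3) to 1.18 (without siLSD1 replicate 2).

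Neuronal genes that REST and CoREST are known to repress were followed as targets of the complex. Of 38 such genes, 27 were in the table and only 14 passed the filter, so that most were not tested. None of the 14 passed the adjusted threshold in edgeR's quasi-likelihood test without a block, with 1 higher and 2 lower at an unadjusted p under 0.05, against 7.48% and 6.55% of all tested genes. The median log2 fold change was −0.06, with 6 genes on the higher and 8 on the lower side and a range of −0.93 to 0.47. With the replicate number as a block, 2 of the 14 fell and 1 rose, against 7.57% of all tested genes called with the block.

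GAD1, which makes the neurotransmitter GABA, had 137, 185 and 150 reads in siCTR libraries against 95, 93 and 96 in siLSD1 libraries. The siLSD1 libraries were close together and all below siCTR, with a log2 fold change of −0.74 (SE 0.17) and an adjusted p of 0.0612 by edgeR's quasi-likelihood test, 0.00316 with the block and 0.0237 by DESeq2. GRIN1, an NMDA receptor subunit, had 228, 134 and 194 reads in siCTR libraries against 126, 107 and 58 in siLSD1 libraries, again all below, with a log2 fold change of −0.93 (SE 0.26) and adjusted p-values of 0.120, 0.000109 with the block and 0.0237 by DESeq2. The gene called higher with the block was L1CAM, a neural adhesion molecule named after its values were seen, with a log2 fold change of 0.33 and an adjusted p of 0.316 without and 0.0473 with the block.

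**Figure D5:**
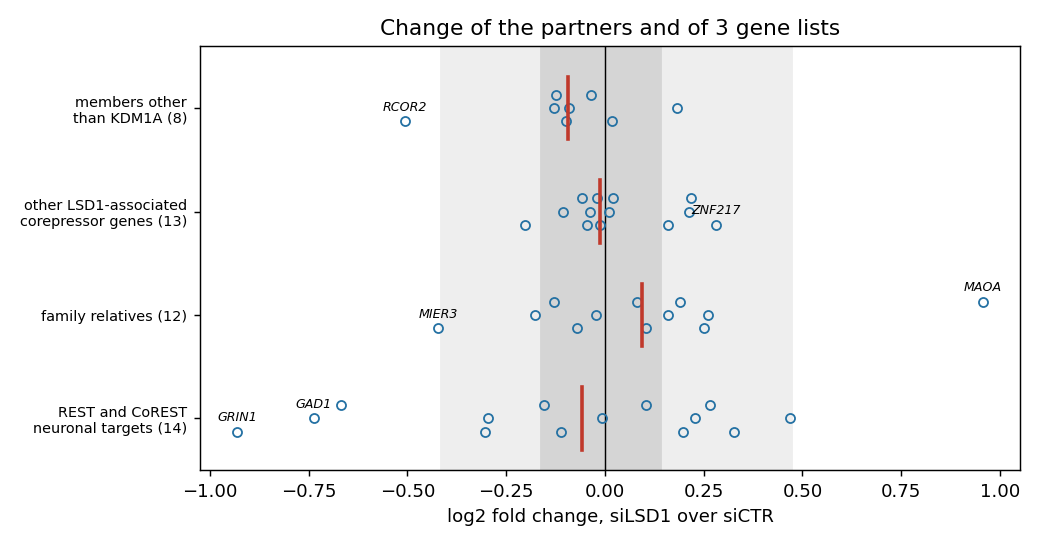
Log2 fold change, siLSD1 against siCTR, of each tested gene in the members other than KDM1A and in the 3 lists of related genes, with red bars at the medians and shaded bands for the middle of all tested genes (25th to 75th and 5th to 95th percentiles). The medians lie between −0.09 and 0.09, and GAD1, GRIN1 and MAOA are the points farthest out.

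The tested genes whose CPM followed KDM1A most closely over the 6 libraries were YME1L1, HES6 and PRDX1. Likeness was measured as the root mean square difference between log2 CPM profiles centred on siCTR, and it was 0.310, 0.804 and 0.865 for these genes. YME1L1, which encodes a mitochondrial protease, had 3470, 3615 and 3511 reads in siCTR libraries against 851, 847 and 952 in siLSD1 libraries, a log2 fold change of −2.0. HES6, a transcription factor, and PRDX1, a peroxiredoxin, had log2 fold changes of −1.54 and −1.24. Centred on siCTR, this measure mainly ranks genes by how near their fall is to that of KDM1A. The other members, with log2 fold changes of −0.51 to 0.18, could therefore not be among the genes most like KDM1A.

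The cell line was checked against markers. VIM, a mesenchymal intermediate filament, had 9487 to 11615 reads in each library, CDH2 585 to 781 and COL1A1 122 to 200, while SPARC and RUNX2, genes of bone-forming cells, had at most 4 reads. FN1, which encodes fibronectin, rose from 382, 238 and 433 reads to 640, 609 and 794 (log2 fold change 0.95, adjusted p 0.0216 by edgeR's quasi-likelihood test, 0.0505 without siLSD1 replicate 1 and 0.0541 without siLSD1 replicate 3). Of 8 markers of epithelial, blood, endothelial and liver cells, 6 were in the table. KRT5, KRT14, PTPRC and PECAM1 had at most 5 reads in any library, EPCAM had 28 to 41 and CDH1 had 66 to 95 in siCTR and 117 to 154 in siLSD1 (log2 fold change 0.77, adjusted p 0.0699 without and 0.00299 with the block). The summed CPM of these 6 was 7.81 to 9.78 in siCTR and 12.5 to 13.6 in siLSD1, and its part in the results was not tested.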

How the data were processed

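RNA-seq libraries of U2OS cells (3 siCTR, 3 siLSD1) were grouped and numbered by their labels. The authors aligned reads with STAR (version not given in the sources used here) and deposited read counts per gene, whole and without normalization, in a table of all 6 libraries. The genome build, annotation and counter are not given in the sources used here. The authors also deposited FPKM per gene, and, in tables for the 3 same-numbered pairs, a second counting with values 1.11 times as high at the median. A further 24 columns of per-library values (a normalized signal and a subset of genes) were not used. Columns of the authors' own fold changes and p-values were not used either.

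Counts were tested with edgeR 4.0.16 in R 4.3.3 (TMM, filterByExpr with a minimum count of 10, glmQLFit and glmQLFTest, no covariate), with Benjamini-Hochberg adjustment over 11844 genes and a threshold of 0.05. The coefficient of variation between replicates was 12.6%. Intervals (95%) come from that fit. Ratios were compared with exact permutation tests in scipy 1.17.1. Coordinates, exon lengths and sequences are from GENCODE 44 on GRCh38, in which 15352 of 15585 genes were matched by symbol or RefSeq synonym. Chi-square per degree of freedom between replicates was 6.19 to 27.9, more than counting noise alone gives. Each library was counted as a sample, although this spread cannot show whether the libraries came from separate transfections. Same-numbered libraries deviated together from their group means (correlations 0.426, 0.127 and 0.478 over 9065 genes). On these values alone, the numbers were taken as pairs in the replicate block, an alternative fit. The fit reported and the permutation tests do not use the pairs. The block called 7.57% of all tested genes, against 1.44% in the fit reported. On simulated counts, 182 of 197 genes changed by 1 on the log2 scale were recovered for this comparison, with 9 false calls among 191. Smaller changes, such as those of the members other than KDM1A, were not simulated, and neither was a pair effect. The recovery of such changes is therefore not known from it.

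Members, lists and tests were chosen with earlier results of these data known. The rule for named genes took the 9 members, list genes under the adjusted threshold or else the 2 with the lowest p, and the 3 genes most like KDM1A. A list gene that this rule takes is not reported here. Alternatives were DESeq2 1.42.0, limma 3.58.1 (voom), library-size scaling, no filter or at least 1 CPM in 3 libraries, a replicate block, a GC and length correction (lowess, span 0.3), leaving out each library, and the second counting. No siRNA or protein sequence is printed here.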

Additional observations from a re-analysis of the deposited data

How the results depend on the processing

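KDM1A kept its direction and its adjusted p under 0.05 in all 15 alternatives, with log2 fold changes of −2.47 to −2.38 when 1 library was left out. No other member passed in any of them, and 2 members, KDM1A and RCOR2, were lower at an unadjusted p in the fit reported. For RCOR2 this p was 0.0318 with the block, 0.0421 with limma (voom) and 0.0411 in the second counting. It was 0.0472 with library-size scaling, 0.0412 without a filter and 0.0493 with at least 1 CPM in 3 libraries. With DESeq2 it was 0.075, with the GC and length correction 0.157, and with correction and block 0.113. Leaving out a library gave 0.0242 to 0.166, under 0.05 only without siLSD1 replicate 2. For RCOR1 it was 0.0106 with the correction. Signs turned for 3 members near 0 and 1 ratio. PHF21A was −0.0924 with the GC and length correction and −0.0926 with this and the block, and −0.10 to 0.0815 when a library was left out. HMG20B was 0.10 with either correction, and ZMYM2 was −0.0847 to 0.0304 when a library was left out. RCOR3 reads relative to RCOR1, 0.01 on the log2 scale, were −0.0102 in the second counting and −0.0294 to 0.0649 when a library was left out. By annotated exon length KDM1A ranked 2 in siCTR and 7 in siLSD1. The cause of these shifts was not tested.

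Over all tested genes, 127 were higher and 44 lower. The numbers were 210 and 113 with DESeq2, 489 and 408 with the replicate block (paired numbers), 458 and 376 with the GC and length correction, 669 and 694 with both, and 886 and 776 at an unadjusted p, and 102 were lower without a filter. Leaving out a library gave 45 to 99 higher and 7 to 37 lower, with 65 and 23 without siCTR replicate 2, 45 and 13 without siCTR replicate 3, 54 and 17 without siLSD1 replicate 1, 53 and 7 without siLSD1 replicate 2, and 29 lower without siLSD1 replicate 3. Of the relatives, 1 (MIER3) was lower with the block, the correction and both. Of the neuronal targets, 2 were lower with DESeq2, without a filter, with the block, the correction and both, and 1 was higher with the block and with both. Beyond these and the marker CDH1, the block changed no call among the genes named. With 38 to 71 reads per library, RCOR2 is the member whose change is least precisely known.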
